A study of Mus musculus with 18 samples.

Results

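The 10 genes described here are the glucocorticoid receptor gene Nr3c1, the mineralocorticoid receptor gene Nr3c2 and 8 genes known to respond to glucocorticoids, namely Plin4, Sgk1, Klf15, Klf9, Tsc22d3, Fkbp5, Zbtb16 and Errfi1. They were taken by symbol, and all 10 of 10 had a row in each of the 3 tables, among 13784 genes in all. RNA came from the cortex of 18 mice of 4 to 6 months. Controls received saline (4 mice) or lipopolysaccharide (LPS, an outer membrane component of bacteria that the innate immune system recognises; 5 mice), as did mice with an astrocyte conditional knockout (cKO) of the chromatin remodeller gene Chd8 (4 mice with saline, 5 mice with LPS). LPS was given into the abdomen at 5 mg/kg and tissue was taken after 72 hours. The sources used here give neither the Cre driver nor the strain nor the exact genotype of the controls, and nothing says whether any mice share a litter or a day of preparation.

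Glucocorticoids, in mice corticosterone, are adrenal steroids released in stress and in systemic inflammation. They enter cells and bind the receptors encoded by Nr3c1 and Nr3c2, which leave a chaperone complex, move to the nucleus and bind DNA as dimers at palindromic elements near target genes. In the brain, Nr3c2 binds corticosterone with the higher affinity, and astrocytes, neurons, oligodendrocytes and endothelial cells all hold receptor. Several targets feed back on the hormone or on inflammation: Fkbp5 lowers the receptor's affinity for hormone, and Tsc22d3 encodes GILZ, which restrains NF-kB and AP-1.

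The full element searched for here consists of the arms AGAACA and TGTTCT with any 3 bases between them. It is a strict form, so its matches are not a count of the sites that the receptors can bind. A match is shown here because, of the 8 genes with a promoter window, Sgk1 alone has it in one. In the RefSeq promoter table (GRCm38.p6; 250 bases before to 50 bases after each start), 8 of the 10 genes matched, with 16 windows; Nr3c1 and Zbtb16 were not searched. The full element was found in 3 of all 32851 windows (0.00913%), searched on both strands, and 1 of these 3 is one of the 6 windows of Sgk1. The other 2 genes with it are not in the tables. The 250 bases before that Sgk1 start, on the plus strand at chr10:21993640-21993889, are given 5′ to 3′ with the element in capitals, which runs from position -189 to position -175 relative to the start.

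Sgk1: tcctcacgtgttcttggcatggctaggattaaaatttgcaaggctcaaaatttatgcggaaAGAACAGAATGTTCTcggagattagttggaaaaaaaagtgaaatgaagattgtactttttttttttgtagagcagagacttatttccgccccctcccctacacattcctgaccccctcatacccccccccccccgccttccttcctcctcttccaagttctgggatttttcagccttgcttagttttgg

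One arm of the palindrome, TGTTCT on either strand, was in 18.97% of all windows and in 4 of the 16 windows of these genes, which belong to Sgk1 and Tsc22d3. The stretch of Tsc22d3, on the minus strand of GRCm38.p6 at chrX:140600690-140600719, has the arm in capitals.

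Tsc22d3: ccgcattcgacaTGTTCTaagttctgagac

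The windows of the other 6 matched genes hold neither sequence, which says only that these letters are not in these windows. A looser palindrome of GNACA, any 3 bases and TGTNC (N is any base), which takes in the full element, was in 0.475% of windows. Of 145 genes with it, 37 were in the tables. In controls 6 of these 37 rose and 1 fell after LPS (18.9% changed, against 9.76% of all genes). In cKO mice 5 rose and 3 fell (21.6% changed, against 10.9% of all genes that rose and 8.52% that fell). None passed between the genotypes after LPS, where 7 (18.9%) had an unadjusted p below 0.05, against 12.3% of all genes. Which start the Sgk1 transcripts in these libraries used was not tested.

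The values are the authors' deposited fold changes, with a standard error (SE) taken as the absolute log2 fold change over the root of the deposited F. A gene is said to have risen or fallen where its deposited FDR is below 0.05. Values per mouse were not used here and sequencing depth is unknown, so levels are given per group, back-calculated in log2 CPM (counts scaled to the library total) from the deposited fold change and mean. Chd8, the targeted gene, had 0.02 ± 0.05 (FDR = 0.901) between cKO and control cortex after LPS in the authors' deposited table, and whole cortex holds many cells that are not astrocytes. Neuron markers stood at a summed level of 12.3 log2 CPM in each of the 4 groups. Singly, 2 of the 6 rose after LPS in cKO mice, against 10.9% of all genes, and none passed in controls. These were Rbfox3 (0.58 ± 0.09, FDR = 0.00653) and Gad2 (0.25 ± 0.07, FDR = 0.0355) in the authors' deposited table. Sex-linked transcripts differed between the groups: Ddx3y, on the Y chromosome, had a level of -7.2 log2 CPM in control saline, 3.7 in control LPS, 5.9 in cKO saline and 5.7 in cKO LPS, and Xist 7.5, 7.3, 4.3 and 5.9. The labels used here do not state the sex of the mice, so a part of sex in any difference below cannot be told apart from treatment or genotype.

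Among the receptors, Nr3c1 fell after LPS in both genotypes and Nr3c2 did not change past the threshold in either. The level of Nr3c1 was 7.63 log2 CPM in control saline, 7.36 in control LPS, 7.61 in cKO saline and 7.23 in cKO LPS, so that the LPS groups were the lower ones in each genotype. The fall was 0.27 ± 0.07 on the log2 scale in the authors' deposited table for controls (FDR = 0.0379), a level 0.829 times that after saline. The authors' deposited table for cKO mice gave a fall of 0.37 ± 0.05 (FDR = 0.00387), to 0.772 times. By p it stood at rank 38 of 13784 genes in the cKO table and at rank 966 in the control table. In bulk tissue, fewer cells with receptor and less receptor RNA per cell cannot be told apart.

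The level of Nr3c2 was 5.92 log2 CPM in control saline, 5.78 in control LPS, 5.84 in cKO saline and 5.92 in cKO LPS. These levels span less than those of Nr3c1. Its LPS response was -0.14 ± 0.09 in controls (95% interval -0.34 to 0.05, FDR = 0.299) and 0.07 ± 0.08 in cKO mice (-0.10 to 0.25, FDR = 0.542) in the authors' deposited tables. Its exons share 247 of 6474 bases with Gm10649 on the opposite strand in the GENCODE annotation (GRCm38), and those of Plin4 share 17 of 5777 bases with Hdgfl2. The library kit was stranded, but the sources used here do not say whether counting used strand.

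**Figure D1:**
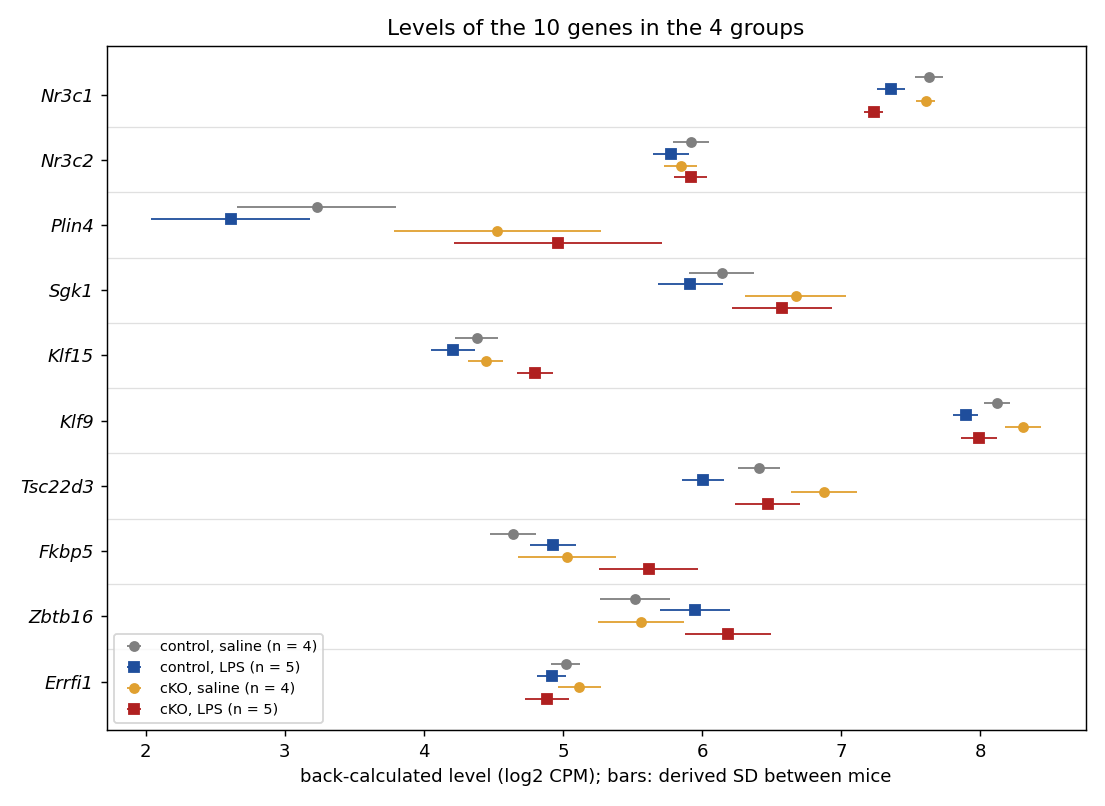
Back-calculated level in log2 CPM (horizontal axis) of each of the 10 genes in the 4 groups; bars are the SD between mice derived from the deposited SE, assumed equal in the saline and LPS mice of a genotype. Control and cKO levels come from tables normalised separately. Nr3c1 is lower in both LPS groups, and Plin4 runs from 2.61 in control LPS to 4.96 in cKO LPS.

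After LPS in controls, 3 of the 10 genes fell and none rose, against 3.31% of all genes that fell and 6.46% that rose in that table. Beside Nr3c1 these were Tsc22d3 and Klf9, a Krüppel-like factor induced by glucocorticoids and thyroid hormone. The median log2 fold change of the 10 genes was -0.20, against 0.00 for all genes, and 8 of 10 lay below 0. In cKO mice 2 genes fell (Nr3c1 and Klf9) and 1 rose (Klf15), against 8.52% and 10.9% of all genes, with a median of -0.01. The genes were chosen with results of these data known, so these counts describe them and do not set them apart.

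Tsc22d3 had a level of 6.41 log2 CPM in control saline, 6.00 in control LPS, 6.87 in cKO saline and 6.47 in cKO LPS. Within each genotype LPS was lower, and within each treatment cKO was higher. In the authors' deposited tables it fell by 0.40 ± 0.10 in controls (FDR = 0.0391), and the value in cKO mice was -0.40 ± 0.16 (FDR = 0.0983), the same size with a larger SE. The difference between these responses was 0.00 ± 0.23 (95% interval -0.45 to 0.45, adjusted p = 0.999).

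Klf9 had the highest level of the 10 genes per kb of exon in control saline, at 5.85 log2 CPM per kb, followed by Nr3c1 at 4.69 and Tsc22d3 at 4.29, and Plin4 had the lowest at 0.70. Its level was 8.12 log2 CPM in control saline, 7.89 in control LPS, 8.31 in cKO saline and 7.99 in cKO LPS. The authors' deposited tables gave falls of 0.23 ± 0.06 in controls (FDR = 0.0464) and of 0.32 ± 0.09 in cKO mice (FDR = 0.0341). Each is a change of under 1.5-fold, as are all calls on these 10 genes.

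Klf15, a Krüppel-like factor of amino acid and lipid metabolism that glucocorticoids induce directly, rose after LPS in cKO mice and did not pass in controls. Its level was 4.38 log2 CPM in control saline, 4.21 in control LPS, 4.44 in cKO saline and 4.80 in cKO LPS. The cKO LPS group stands above the other 3. In the authors' deposited tables it rose in cKO mice (0.36 ± 0.09, FDR = 0.0219), while its value in controls was -0.17 ± 0.10 (FDR = 0.315). With the trend of fold change on GC content and gene length removed, the rise in cKO mice did not pass (0.24, adjusted p = 0.0807) and the value in controls was -0.26 (adjusted p = 0.123). The difference between the responses was 0.52 ± 0.16 (95% interval 0.21 to 0.84), which did not pass over all genes (adjusted p = 0.431). It was the only one of the 10 genes with an unadjusted p below 0.05 for this difference, against 6.52% of all genes, and none of the 10 passed over all genes, against 0.00725%. With SEs taken from F in place of the more cautious ones used, again 1 gene had an unadjusted p below 0.05 and none passed.

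Fkbp5 and Zbtb16 stood above 0 after LPS in both genotypes without passing. Fkbp5, the co-chaperone that dampens the receptor, had a level of 4.64 log2 CPM in control saline, 4.93 in control LPS, 5.03 in cKO saline and 5.61 in cKO LPS. Its LPS response was 0.29 ± 0.11 (FDR = 0.120) in controls and 0.59 ± 0.24 (FDR = 0.107) in cKO mice in the authors' deposited tables. With the trend on GC content and gene length removed, the value in controls was 0.17 (adjusted p = 0.315). Zbtb16, a BTB zinc finger transcription factor, had a level of 5.52 log2 CPM in control saline, 5.95 in control LPS, 5.56 in cKO saline and 6.18 in cKO LPS. Its response was 0.43 ± 0.17 (FDR = 0.125) in controls and 0.62 ± 0.21 (FDR = 0.0622) in cKO mice in the authors' deposited tables. These 2 genes thus lay on the other side of 0 from Nr3c1, Tsc22d3 and Klf9.

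The remaining targets did not pass after LPS. Sgk1, a kinase that raises sodium channel and transporter activity and has the element printed above before one of its annotated starts, had -0.22 ± 0.16 in controls (FDR = 0.380) and -0.10 ± 0.24 in cKO mice (FDR = 0.795) in the authors' deposited tables. Errfi1, an inhibitor of the EGF receptor, had -0.10 ± 0.07 (FDR = 0.368) in controls and -0.23 ± 0.10 (FDR = 0.139) in cKO mice by the authors' deposited tables. Plin4, which coats lipid droplets, had -0.62 ± 0.38 in controls (95% interval -1.48 to 0.24, FDR = 0.311) and 0.44 ± 0.50 in cKO mice (-0.68 to 1.56, FDR = 0.560) in the authors' deposited tables. The latter was 0.28 with that trend removed (adjusted p = 0.718). Its signs differ, but the difference of 1.06 ± 0.67 did not pass (95% interval -0.25 to 2.37, adjusted p = 0.831). Plin4 also had the widest SE of the 10 genes in both tables.

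**Figure D2:**
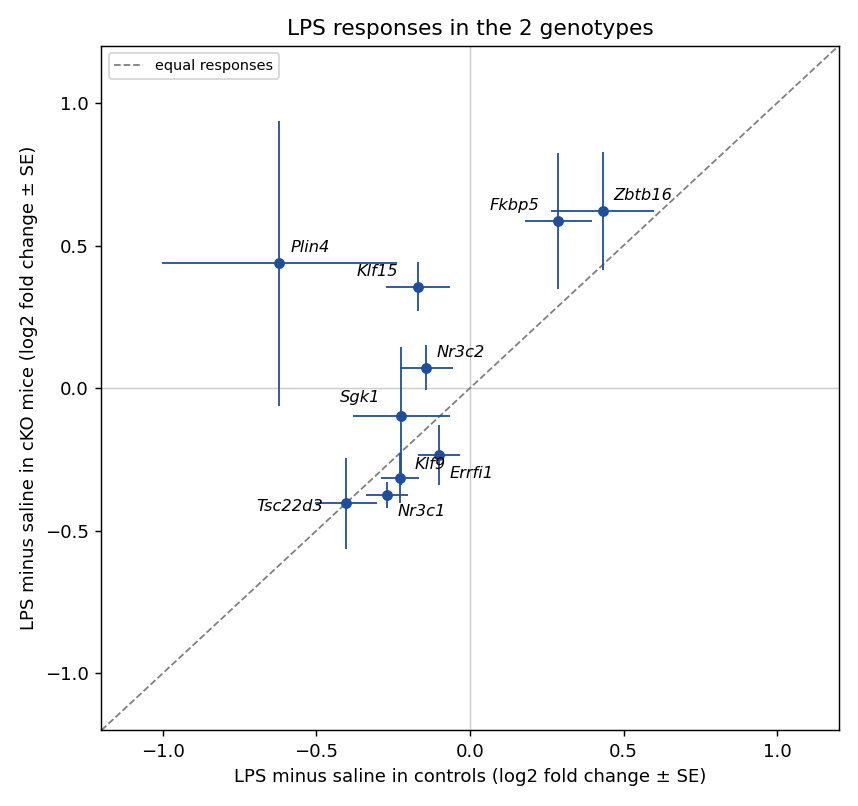
LPS response in controls (horizontal axis) and in cKO mice (vertical axis) of the 10 genes, as log2 fold changes ± SE with n = 4 saline and 5 LPS mice in each genotype; the dashed line marks equal responses. Klf15 (-0.17 and 0.36) and Plin4 (-0.62 and 0.44) lie farthest above the line.

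Between the genotypes after LPS, 5 cKO and 5 control mice were compared; its LPS mice are also those of the 2 LPS tables above. None of the 10 genes passed in the authors' deposited table, against 0.00725% of all genes, and 7 of the 10 had an unadjusted p below 0.05, 6 higher and 1 lower in cKO mice, against 12.3% of all genes in either direction, 5.98% higher and 6.33% lower. The median of the 10 genes was 0.37, against 0.00 for all genes. Among the 8 targets 7 lay above 0 (median 0.57). The genes were chosen with this pattern known, so the counts are no independent support for it.

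Plin4 had the highest fold change of all 13784 genes in this table. Its level was 3.23 log2 CPM in control saline, 2.61 in control LPS, 4.53 in cKO saline and 4.96 in cKO LPS, or 9.38, 6.10, 23.1 and 31.2 CPM, so both cKO groups stood above both control groups. After LPS it was higher in cKO mice by 2.54 ± 0.43 in the authors' deposited table (95% interval 1.57 to 3.51, p = 0.000245, FDR = 0.147), a 5.82-fold difference that did not pass over all genes. Klf15 had the smallest p of the 10 genes, at rank 5 of 13784, with 0.67 ± 0.10 in the authors' deposited table (95% interval 0.45 to 0.89, p = 8.82e-05, FDR = 0.147), or 1.59-fold.

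The other targets with an unadjusted p below 0.05 were Tsc22d3, Fkbp5 and Sgk1. Tsc22d3 was at 0.47 ± 0.13 (FDR = 0.282), Fkbp5 at 0.73 ± 0.27 (FDR = 0.344) and Sgk1 at 0.68 ± 0.24 (FDR = 0.334) in the authors' deposited table, which are 1.39-fold, 1.66-fold and 1.60-fold. The level of Sgk1 was 6.14 log2 CPM in control saline, 5.92 in control LPS, 6.67 in cKO saline and 6.57 in cKO LPS, with both cKO groups above both control groups. Klf9 (0.09 ± 0.10, FDR = 0.750), Zbtb16 (0.26 ± 0.23, FDR = 0.671) and Errfi1 (-0.05 ± 0.11, FDR = 0.883) had 95% intervals in the authors' deposited table that held 0, from -0.14 to 0.32, -0.27 to 0.79 and -0.29 to 0.19.

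The receptors lay closer to 0 than the targets with an unadjusted p below 0.05, but farther from 0 than Klf9 and Errfi1. Nr3c1 was at -0.13 ± 0.06 (95% interval -0.265 to -0.00475, p = 0.0437, FDR = 0.397) and Nr3c2 at 0.17 ± 0.07 (0.00428 to 0.339, p = 0.0455, FDR = 0.40) in the authors' deposited table. The 2 receptor genes thus had opposite signs, with neither past the threshold.

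**Figure D3:**
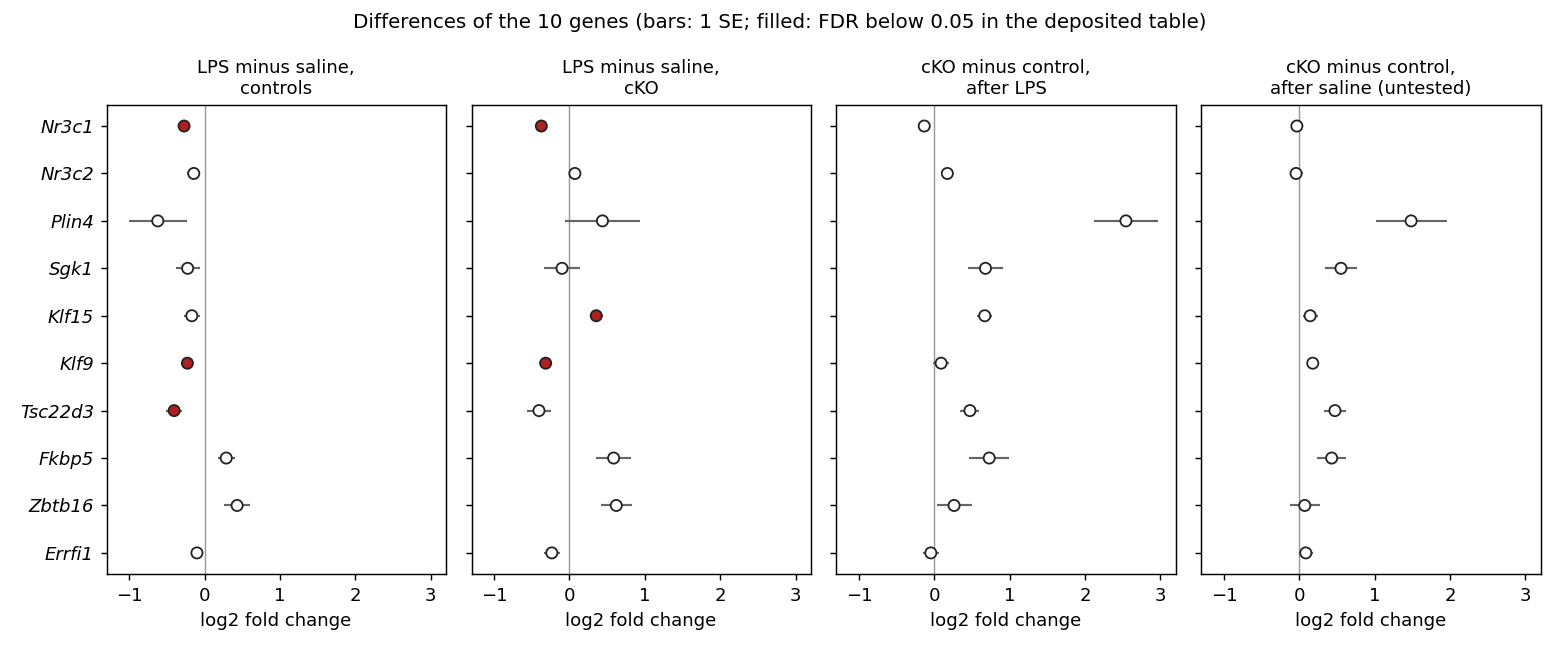
Log2 fold changes of the 10 genes (horizontal axis, same scale in the 4 panels) with bars of 1 SE; filled points passed an FDR of 0.05 as deposited, and the saline panel is an untested estimate with a derived SE. The filled points are Nr3c1, Klf9 and Tsc22d3 in controls and Nr3c1, Klf15 and Klf9 in cKO mice, and Plin4 stands highest in both panels of cKO minus control.

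No deposited table compares the saline groups, so their difference was estimated from the 3 fold changes. The estimate was above 0 for all 8 targets (median 0.30) and slightly below 0 for both receptors. Of all 13784 genes, 7271 lay above 0 (median 0.00). As the members were chosen with results of these data known, this count does not set the targets apart. For the astrocyte markers the estimate was above 0 in 7 of 7 (median 0.23), and their part in the values of the targets was not tested. Plin4 had 1.48 ± 0.47 (derived SE), at the 99.98th percentile of all genes, Sgk1 0.55 ± 0.22 at the 99.8th, Tsc22d3 0.47 ± 0.14 at the 99.7th and Fkbp5 0.43 ± 0.19 at the 99.6th. For these 4 genes the back-calculated cKO levels thus stood above the control levels with saline as well as with LPS. Klf15 had 0.14 ± 0.10 (0.07 as the difference of the back-calculated levels), against 0.67 after LPS. Klf9 had 0.18 ± 0.08, Errfi1 0.09 ± 0.09, Zbtb16 0.07 ± 0.20, Nr3c1 -0.03 ± 0.06 and Nr3c2 -0.04 ± 0.09. The derived SE assumes that saline and LPS mice of a genotype vary alike. Computed the same way for the LPS groups, it was 0.809 times the SE of the deposited genotype table at the median gene, and no test was made. Sex-linked transcripts differed most between these 2 saline groups, by the levels given above.

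Other known glucocorticoid targets were read from a list of 22 genes, of which 21 were measured. The authors' deposited table for controls had 2 that rose and 0 that fell after LPS (against 6.46% and 3.31% of all genes), Tgm2, a transglutaminase (0.79 ± 0.13, FDR = 0.00681), and Fam107a, an actin-bundling stress-induced gene (0.37 ± 0.09, FDR = 0.0348), with a list median of -0.02. For cKO mice the authors' deposited table had 2 that rose and 0 that fell (against 10.9% and 8.52% of all genes), Hif3a, a hypoxia-inducible factor subunit (1.04 ± 0.30, FDR = 0.0393), and Tgm2 again (0.70 ± 0.21, FDR = 0.0459), with a list median of 0.19. Between the genotypes after LPS none passed, 15 of 21 lay above 0 (median 0.36), and 7 had an unadjusted p below 0.05, all 7 higher in cKO mice (against 5.98% of all genes higher and 6.33% lower). The smallest p values were those of Rhob, a small GTPase (0.36 ± 0.08, FDR = 0.237), and Ddit4, an inhibitor of mTORC1 (0.57 ± 0.13, FDR = 0.237), in the authors' deposited table. The saline estimate had a median of 0.08 over these 21 genes, below the 0.30 of the 8 targets. Not every known target lay above 0: Dusp1, a MAP kinase phosphatase, was at -0.63 ± 0.38 (FDR = 0.529) and the clock gene Per1 at -0.26 ± 0.16 (FDR = 0.551) in the authors' deposited table.

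Of the genes listed under hormone access, 4 of 5 were measured. Abcb1a encodes the P-glycoprotein pump of brain endothelium, which exports some corticosteroids. It rose after LPS in controls (0.71 ± 0.07, FDR = 0.000324) and in cKO mice (0.41 ± 0.10, FDR = 0.0211) in the authors' deposited tables. Transport of corticosterone was not measured, so these values do not show a change in its access to the cortex. Endothelial markers rose too, 6 of 7 in controls and 5 of 7 in cKO mice, against 6.46% and 10.9% of all genes. Their summed level was 7.67 and 8.24 log2 CPM in control saline and LPS, and 7.75 and 8.21 in cKO saline and LPS. The part of endothelial cells in the Abcb1a values was not tested. Hsd11b1, the enzyme that regenerates active corticosterone from its inert form, fell by 0.77 ± 0.15 in cKO mice (FDR = 0.0119) and had -0.06 ± 0.15 in controls (FDR = 0.823) in the authors' deposited tables. The difference of these responses, -0.71 ± 0.27, did not pass over all genes (adjusted p = 0.558). Its saline estimate was 0.44 ± 0.16.

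Of 7 receptor chaperones measured, 1 passed after LPS in cKO mice and none in controls. Of all genes, 10.9% rose and 8.52% fell in cKO mice, and 6.46% rose and 3.31% fell in controls. Hspa8, a constitutive Hsp70, fell by 0.44 ± 0.08 in cKO mice (FDR = 0.0113) and had -0.22 ± 0.08 in controls (FDR = 0.107) in the authors' deposited tables. Hsp90ab1, a constitutive Hsp90, had 0.37 ± 0.13 in controls (FDR = 0.101) and 0.35 ± 0.11 in cKO mice (FDR = 0.0564) in the authors' deposited tables. Of 9 receptor cofactors, the acetyltransferase genes Crebbp (0.35 ± 0.06, FDR = 0.0120) and Ep300 (0.36 ± 0.07, FDR = 0.0155) rose in controls in the authors' deposited table, and none passed in cKO mice, where Ep300 had 0.26 ± 0.09 (FDR = 0.0657) in the authors' deposited table. The 3 measured genes of the corticotropin-releasing hormone system, Crh, Crhr1 and Crhbp, lay below 0 after LPS in both genotypes, from -0.35 to -0.12, and none passed. Between the genotypes after LPS no gene of these 4 lists passed, and their medians lay between -0.18 and -0.05. Of the 9 receptor cofactors 3 had an unadjusted p below 0.05, all 3 lower in cKO mice, against 6.33% of all genes lower. No gene of the other lists had such a p.

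**Figure D4:**
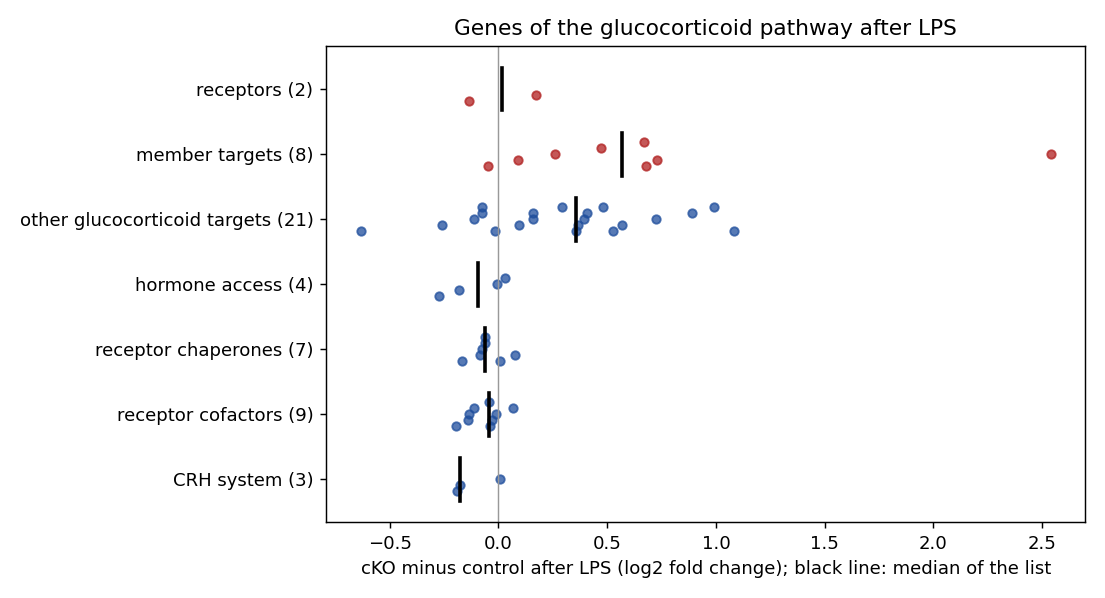
Log2 fold change of cKO minus control after LPS (horizontal axis, 5 mice in each group) for the genes of each list (rows, number measured in brackets), with the 10 genes described here in red and the list median as a black line. The 8 targets and the 21 other targets have medians of 0.57 and 0.36, and the other 5 lists plotted have medians from -0.18 to 0.02; marker lists of cell types and tissues are not plotted.

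Markers of several cell types and of neighbouring tissue differed in the same comparison. After LPS, astrocyte markers, whose cells carry the deletion, were above 0 in cKO mice in 4 of 7 (median 0.38; summed levels 11.9, 11.8, 12.1 and 11.9 log2 CPM in control saline, control LPS, cKO saline and cKO LPS). Oligodendrocyte markers were above 0 in 4 of 7 (median 0.02; summed levels between 11.2 and 11.3 in the 4 groups) and neuron markers in 3 of 6 (median 0.04). Microglia markers were below 0 in 6 of 6 (median -0.29; summed levels 8.06, 8.56, 8.09 and 8.25). Endothelial markers were below 0 in 5 of 7 (median -0.21), and pericyte and smooth muscle markers in 4 of 6 (median -0.32; summed levels 7.11, 7.36, 7.07 and 7.13). Striatal markers were above 0 in 6 of 6 (median 0.67; summed levels 7.85, 7.75, 8.06 and 8.29), and their saline estimate was above 0 in 6 of 6 (median 0.29). Of 5 choroid plexus markers 3 were measured, all above 0 (median 0.84), with summed levels of 6.84, 3.51, 6.87 and 4.47; Folr1 and Aqp1 were not in the tables. None of these markers passed singly in the authors' deposited comparison of the genotypes. An unadjusted p below 0.05 was seen for 4 of 7 astrocyte markers, all 4 higher in cKO mice. It was also seen for 2 of 6 microglia markers and 2 of 6 pericyte and smooth muscle markers, all lower. The share of all genes was 5.98% higher and 6.33% lower. Of the neuron, striatal, choroid plexus and endothelial markers 1 each had such a p, and of the oligodendrocyte markers none. The part of cell and tissue composition in the values of the 10 genes was not tested.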

How the data were processed

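Bulk RNA of mouse cortex was measured in 18 libraries, prepared after ribosomal RNA depletion with a stranded kit per the labels' protocols. The submitters' processing notes name edgeR 3.30.3, RSEM, STAR and cutadapt 3.5, and the build GRCm39, without their roles. The columns deposited by the authors hold, per the file headers, the log2 fold change and mean log2 CPM of a gene, an F score, a p-value and an FDR (an adjusted p-value). Each of the 3 tables is a separate fit (implied denominator degrees of freedom 8.66, 9.76 and 9.85).

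Directions are not stated in the headers. Read as cKO minus control and LPS minus saline, group levels from 2 tables differed by an SD of at most 0.0537, against 0.226 or more with any sign turned. The deposited mean was read as the log2 of the mean CPM over mice of equal weight. The difference of LPS responses was tested with SEs from the normal quantile of each p-value, adjusted by Benjamini-Hochberg over 13784 genes, with code tested on simulated data (Python 3.11.15, scipy 1.17.1). Groups came from the genotype label, since every title says saline. All p-values rest on the spread between these mice, from which counting error is not separated. The implied degrees of freedom exceed what the mice of each comparison alone would give. The deposited tests thus did not rest on each gene's own spread alone.

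Members and lists were chosen with earlier results of these data known. All 10 members are named. From each list of pathway genes, up to 6 genes past the threshold by p are named for the LPS responses, otherwise the 2 with the smallest p. Between the genotypes after LPS this was done for the other glucocorticoid targets only. For Plin4 and Sgk1 the 5 genes with the nearest fold changes are named. The genes searched have a symbol and average 0 log2 CPM or more in every comparison. Predicted-gene, clone and pseudogene names were left out. The values of 1 receptor cofactor are not reported here. Dusp1 and Per1 were named after their values were seen. Gene lengths and GC came from GENCODE vM21 (GRCm38; 99.6% of genes). Alternatives were the FDR threshold, a minimum mean, a minimum fold change, centring, a GC and length trend, other SEs and other routes to levels and saline estimates.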

Additional observations from a re-analysis of the deposited data

How the results depend on the processing

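No result changed direction. The counts of genes past the threshold that moved were these. Requiring at least a 1.5-fold change left 0 genes falling in controls, and 0 rising and 0 falling in cKO mice. At an FDR below 0.1, 2 genes rose in cKO mice (Klf15 and Zbtb16), and Tsc22d3 passed as falling. With the GC and length trend removed 0 rose there, as Klf15 fell short. Removing that trend also moved LPS responses short of the threshold by over 1.5 times: in controls Klf15 from -0.17 to -0.26 and Fkbp5 from 0.29 to 0.17, and in cKO mice Plin4 from 0.44 to 0.28, Nr3c2 from 0.07 to 0.04, Sgk1 from -0.10 to -0.15 and the median of the 10 genes from -0.01 to -0.06. The genes past the threshold between the genotypes after LPS and for the difference of LPS responses numbered 0 under every alternative run. The median saline estimate of the 10 genes was 0.16, 0.14 from the levels and 0.16 centred. Taken from the levels, the saline estimates of Klf15, Zbtb16 and Nr3c2 moved by over 1.5 times, from 0.14 to 0.07, from 0.07 to 0.05 and from -0.04 to -0.08. Levels of the LPS groups from their 2 tables differed by at most 0.161 (log2), and the level of Nr3c1 in cKO LPS, at 7.14 from the other table, by more than its derived SD. Reading the deposited mean as a mean of log2 values, an alternative chosen after seeing the data, moved no level by more than its derived SD.

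No paired analysis was possible because the files hold no values per library, and for the same reason no mouse was left out in turn. Sequencing depth is unknown, so counting error is not separated from the spread between mice.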

Other observations

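The genes whose 3 deposited fold changes lay nearest to those of Plin4 and Sgk1 were listed as a description, by Euclidean distance over the 3 comparisons among 12587 genes; the comparisons share libraries, and 3 values make a short profile. Plin4 had no close neighbour: the nearest, Gpr101, an orphan receptor gene, was at a distance of 1.04 with 1.63 ± 0.46 between the genotypes after LPS (FDR = 0.291) in the authors' deposited table, followed by Lrrc10b, Trh, Hist1h2ao and Nts at 1.32 to 1.46. Trh and Nts encode neuropeptide precursors. The saline estimate of Gpr101 was -0.11, against 1.48 for Plin4.

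Sgk1 had near neighbours, at distances of 0.00891 to 0.161, namely Gt(ROSA)26Sor, Gjb6, Sdc4, Plekhd1 and Cenpq. Gt(ROSA)26Sor, the transcript of the Rosa26 locus, had an SE of 0.88 in controls and 0.68 between the genotypes, so its nearness is within its error. Gjb6, a gap junction gene of astrocytes, had -0.27 ± 0.07 after LPS in controls, 0.01 ± 0.15 in cKO mice and 0.61 ± 0.14 (FDR = 0.247) between the genotypes in the authors' deposited tables. Sdc4, a cell surface proteoglycan gene, had 0.53 ± 0.13 (FDR = 0.256) between the genotypes in the authors' deposited table, with a saline estimate of 0.43.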
